A study of Mus musculus with 12 samples.

Results

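Among double-negative (DN) thymocytes, the CD4- CD8- precursors of T cells, the cells described here carried Ptcra transcripts together with those of Mki67 and Top2a, a pair of genes transcribed in dividing cells. They were selected on these measured counts. A cell entered with at least 500 unique molecular identifiers (UMIs, each standing for 1 captured transcript) and at least 1 UMI of each of the 3 genes. The rule gave 2854 cells of 29594 in the DN sort and of 97404 in the whole series. They are set beside 6151 non-cycling Ptcra cells, in which Mki67 and Top2a were both at 0.

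The cells came from the thymus of adult mice on the C57BL6/J background, either wild type (WT) or with a germline knockout (KO) of Gfi1. Before the sort, B, myeloid, NK and part of the CD8+ cells were depleted with magnetic beads, and a gate without γδ T cells and other lineages then joined the DN1, DN2 and DN3 stages. Cells of both genotypes were tagged with different hashtag antibodies and run together in each of 2 pools, by 10x 3′ single-cell RNA sequencing, so that a WT and a KO library of the same pool share a droplet run. There are 2 libraries per genotype, and the number of animals in each is not given in the sources used here. The p-values thus refer to spread between libraries and not between animals. In the tests of expression that spread was estimated largely across genes.

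The pre-T-cell receptor joins the invariant chain encoded by Ptcra to a newly rearranged TCR β chain and the CD3 subunits. DN3 cells that assemble it pass β-selection, divide rapidly, switch off the recombinase genes and Il2ra, and move on towards the CD4+ CD8+ stage. GFI1 is a zinc-finger repressor that recruits the demethylase LSD1 and histone deacetylases to its targets.

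The members numbered 816 and 905 in the WT libraries and 407 and 726 in the KO libraries, in the order of the replicates, and paired values are given throughout as WT replicates 1 and 2 against KO replicates 1 and 2. Their median depth was 18257 and 17449 UMIs in the WT libraries and 15917 and 15642 UMIs in the KO libraries. That was deeper than the non-cycling Ptcra cells of the same libraries, with medians of 5816, 5367, 6107 and 5930.5 UMIs. The members' counts summed to between 6370817 and 16025313 UMIs per library. All genes were expressed as CPM, which is a gene's UMIs scaled to the total of its library sum.

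At the edge of the rule lay 52, 68, 46 and 62 members with exactly 1 UMI of both Mki67 and Top2a. Just outside it, 3457 Ptcra cells had UMIs of only 1 of the 2 genes, and 1154, 1029, 565 and 760 cells had both genes but no Ptcra. The members' median was 5 to 7 UMIs of Mki67 and 9 to 12 UMIs of Top2a. Cell barcodes shared between libraries numbered 0 within a pool and 7 to 17 across pools, and no library was left out for this.

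Markers of the label were present. Il2ra, the IL-2 receptor α chain of DN2 and DN3 cells, was at 294 and 213 CPM in the WT and 289.6 and 286 CPM in the KO libraries. Dntt, which adds nucleotides at V(D)J junctions, was at 644 and 684 against 575 and 482 CPM, and Cd3e, a CD3 subunit, at 372 and 375 against 448 and 381 CPM. Transcripts of Cd4 reached at most 1.25 CPM and of Cd8a at most 2.20 CPM in any library. Those of Cd8b1, the other CD8 chain, were seen in 15.3% and 17.9% of WT and 5.65% and 4.27% of KO members.

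Marker lists of other cells were summed in the members. The 10 B-lineage genes, of which 9 had counts, gave 115, 221, 140 and 126 CPM, mostly Ighm and Igkc, while Cd79a stayed at or below 0.44 CPM. The Il2rb and NK-type list had 10 of 12 genes counted. Its sum was higher in both KO libraries, at 763 and 697 CPM against 422 and 459 CPM, and was mostly Gzma. The list of mature αβ T and double-positive cells, with 10 of 10 counted, gave 211, 193, 313 and 254 CPM. Myeloid genes, 5 of 12 counted, summed to at most 9.5 CPM and erythroid genes, 2 of 6 counted, to at most 3.6 CPM.

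The rest of the cell-cycle programme went with the rule genes. All 44 S-phase genes and all 50 remaining G2/M genes were higher in the members than in the non-cycling Ptcra cells of every library, with median log2 ratios of 1.73 and 2.20 after adding 10 CPM. Since the rule chose these cells for 2 genes of that programme, these ratios are a description and carry no test. Outside the rule genes, Pclaf, a PCNA-binding factor, had the highest ratio at 4.06, with 768 and 853 against 795 and 888 CPM in the members. It was followed by the linker histone gene H1f5 (3.79), the mitotic ubiquitin-conjugating enzyme gene Ube2c (3.70), the spindle gene Nusap1 (3.65) and the kinetochore gene Cenpf (3.53).

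Genes of the resting DN3 state lay on the other side. Of 19 pre-TCR and recombination genes with counts, 14 were lower in the members of every library and 2 were higher, with a median log2 ratio of −0.67. Over the 13225 genes with at least 20 UMIs in the 8 sums, 47.8% were lower and 25.6% higher in every library, with a median of −0.08. Rag1, a subunit of the recombinase, had a ratio of −1.99, with 128 and 117 against 168 and 171 CPM in the members and 514 and 527 against 649 and 739 CPM in the non-cycling cells. At least 1 UMI of Rag1 was seen in 65.9% and 66.7% against 67.8% and 72.3% of members. In the non-cycling cells these shares were 74.7% and 77.4% against 77.1% and 84.6%. The ratios here and below compare shares of all UMIs, and members had more UMIs per cell. A negative ratio thus need not mean fewer transcripts per cell. The lowest ratio was that of 1700016L21Rik at −2.18, Btg1, an antiproliferative gene, had −2.10, and Notch3, the Notch receptor most typical of DN3 cells, had −1.94. Ptcra itself, which the rule required in both classes, was at 114 and 125 against 138 and 161 CPM in the members and at 329 and 379 against 340.5 and 428 CPM in the non-cycling cells.

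Other programmes split. Among cyclins and their kinases, 11 of 15 were higher in the members of every library, and Cdk1 stood at 3.19. The early cyclins Ccnd2 (−1.35) and Ccnd3 (−1.15) were lower as shares of the UMIs. Of the glycolysis genes 11 of 17 were higher in all 4 libraries, and of the Notch receptors and targets 8 of 10 were lower, against 25.6% of all genes higher and 47.8% lower. Genes of β-selection and the DN4 stage moved both ways, with 5 higher and 6 lower of 20. The receptor gene Cd28, which rises after β-selection, had a mean ratio of 0.40, above 0 in 3 libraries and below it in KO replicate 1.

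**Figure D1:**
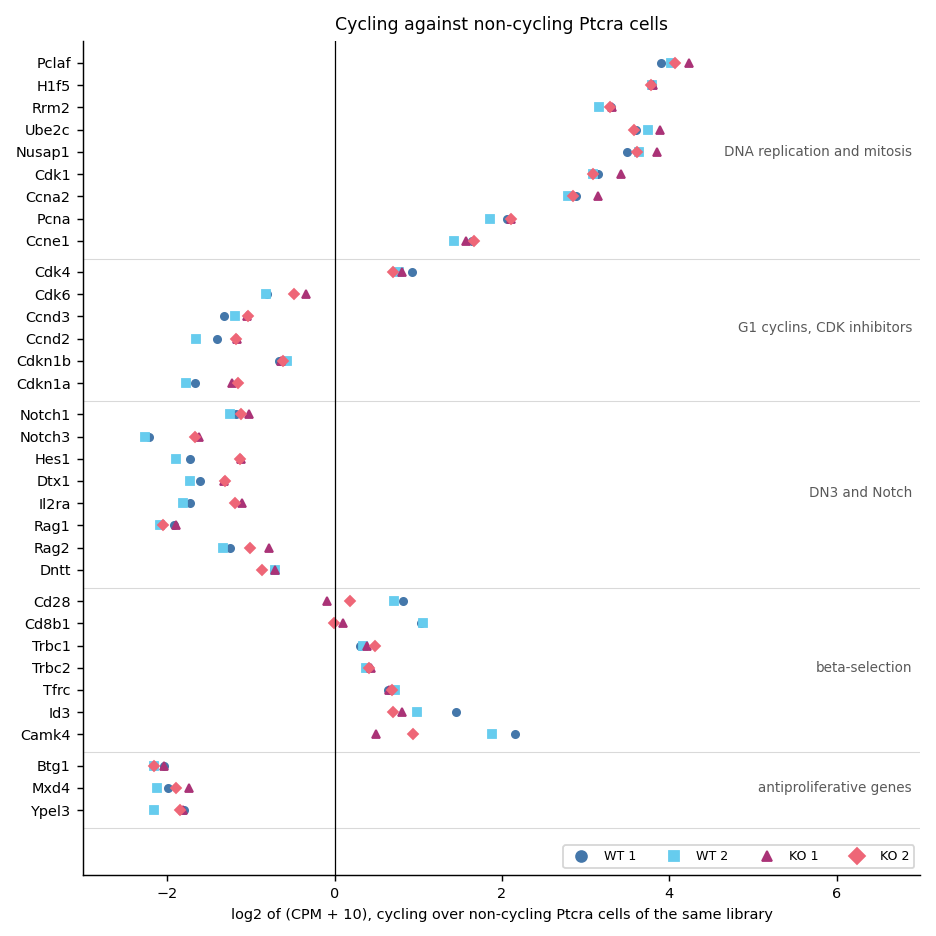
Log2 ratio of CPM, after adding 10 CPM, in cycling over non-cycling Ptcra cells of the same library, for cell-cycle, DN3 and Notch, β-selection and antiproliferative genes, with 1 symbol per library. Pclaf stands highest at a mean of 4.06 and Btg1 lowest at −2.10, while the libraries of Cd28 lie on both sides of 0.

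The share of cycling cells among Ptcra cells was the first comparison of the genotypes. It was 25.9% (exact binomial 95% interval 24.4 to 27.5) and 24.6% (23.3 to 26.1) in the WT libraries, and 19.95% (18.2 to 21.8) and 20.1% (18.9 to 21.5) in the KO libraries. The groups did not overlap, and the intervals cover counting error only. The mean was 25.3% ± 0.918 for WT and 20.1% ± 0.141 for KO (SD, n = 2 each), a difference of −5.24 points, with −5.99 in pool 1 and −4.49 in pool 2. The exact two-sided permutation test gave p = 0.33, the smallest that 2 libraries against 2 allow, so it cannot reach 0.05.

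The KO members were also shallower than the WT members. Ptcra cells outside the rule were not shallower in the KO libraries. Non-cycling medians were 5816 and 5367 against 6107 and 5930.5 UMIs. With UMIs of only 1 of the 2 genes they were 6819 and 6082 against 6904 and 6948 UMIs. Depth sets how often a transcript is seen, so the share was also taken at equal depth. After thinning every cell to 3000 UMIs and leaving out shallower cells (1443 and 1340 of all WT cells in the DN sort, 1250 and 1373 of the KO cells), the shares were 11.5% (10.006 to 13.2) and 9.08% (7.88 to 10.4) against 8.77% (7.19 to 10.6) and 7.86% (6.78 to 9.06). Thinning lowered all 4 shares, so that the difference was −1.98 points, while the ratio of the KO to the WT mean was 0.81, against 0.79 at full depth. By pool the ratio was 0.76 and 0.87 after thinning and 0.77 and 0.82 before. The interval of WT replicate 2 lay within that of KO replicate 1, and those of WT replicate 1 and KO replicate 2 did not overlap. With at least 2 UMIs of both Mki67 and Top2a in place of 1, at full depth, it was −5.00 points. Over all cells of the sort rather than Ptcra cells, members made up 11.2%, 11.9%, 5.79% and 9.47%.

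**Figure D2:**
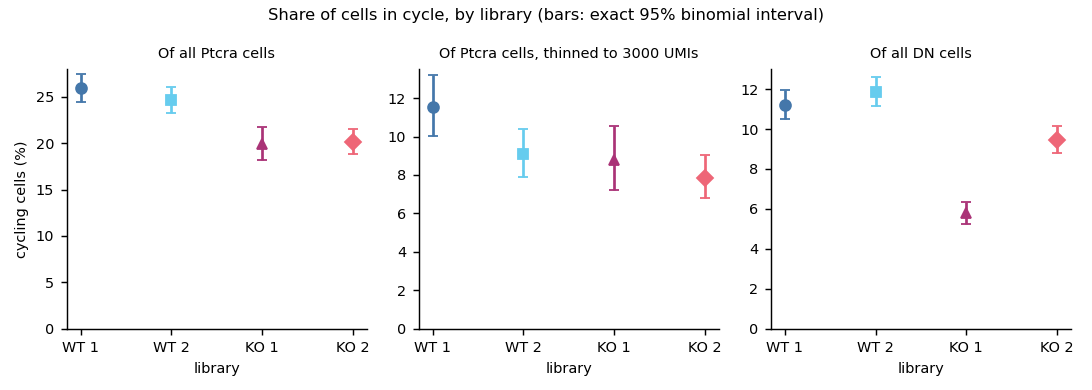
Percentage of cells that met the cycling rule in each of the 4 libraries, with exact binomial 95% intervals, among Ptcra cells at full depth, among Ptcra cells thinned to 3000 UMIs, and among all cells of the DN sort. Both KO libraries lie below both WT libraries in each panel, at 19.95% and 20.1% against 25.9% and 24.6% at full depth. After thinning the intervals of WT replicate 1 and KO replicate 2 remain apart, and those of the other WT and KO pairs overlap.

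The targeted gene came first in the comparison of expression. Gfi1 (ENSMUSG00000029275) was at 40.3 and 36.3 CPM in the WT members and at 76.4 and 46.3 CPM in the KO members. Its transcripts were thus not lower with the label KO, in either pool (38.3 ± 2.89 CPM against 61.4 ± 21.3 CPM, SD, n = 2 each; log2 difference 0.65, SE 0.15, adjusted p = 0.00848). Without KO replicate 1 the log2 difference was 0.34 with an adjusted p of 0.193. In the non-cycling cells it was 60.1 and 55.02 CPM against 114 and 84.7 CPM (log2 difference 0.80, SE 0.13, adjusted p = 0.00208). Which part of the gene the KO allele lacks is not given in the sources used here, and tags from the 3′ end need not report its loss, so libraries are named by their label throughout.

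Transcripts of the sex chromosomes were compared as well, and of Xist and Ddx3y only Ddx3y was called. In the members Xist, transcribed in female cells, was at 1146 and 918 CPM in the WT and 1596 and 1266 CPM in the KO libraries (adjusted p = 0.0738), while the Y-linked Ddx3y was at 21 and 22.2 against 11.6 and 8.77 CPM (log2 difference −1.12, SE 0.15, adjusted p = 7.76e-06). Every library held transcripts of both genes, and the part of sex in the differences below was not tested.

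In the members, 1269 of 11711 genes tested passed an adjusted p of 0.05 by edgeR's quasi-likelihood F test on the library sums, which is 10.8% of them. Of these, 906 were higher with the label KO (7.74%) and 363 lower (3.1%), while the median log2 difference over all genes was −0.01. With the pool as a replicate block the count was 2541 (1506 higher, 12.9% of genes tested, and 1035 lower, 8.84%), of which 1268 were among the 1269. DESeq2 called 780 genes (619 higher, 5.29%, and 161 lower, 1.37%), and 756 of them were shared. The lower count also moved to 224 without WT replicate 1 and to 211 with the spread shared with the non-cycling sums. In the non-cycling cells 1317 of 11700 genes passed (11.3%), 884 of them higher (7.56%) and 433 lower (3.7%), and the block gave 2750.

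The genes that rose most in the members were headed by Rasgrp3, which encodes an activator of Ras. Rasgrp3 was nearly absent from the WT members at 0.399 and 0.437 CPM and reached 49.6 and 49.9 CPM in the KO members (0.418 ± 0.0269 CPM against 49.8 ± 0.218 CPM, SD, n = 2 each; log2 difference 6.86, SE 0.21, adjusted p = 1.65e-16). Ifitm1, of the interferon-induced membrane protein family, went from 2.06 and 2.68 CPM to 125 and 96 CPM (log2 difference 5.51, SE 0.17, adjusted p = 1.65e-16). For both genes the 2 groups were far apart relative to their spread. Both changes also appeared outside the members. Rasgrp3 was seen in 0.48% and 0.57% of WT and 23.8% and 22.9% of KO non-cycling cells. Thinned to 3000 UMIs, the KO shares were 13.5% and 13.9% there and 14.5% and 15.1% in the members. Ifitm1 was seen in 2.83% and 3.75% against 13.1% and 22.7% of non-cycling cells.

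Klf2, a transcription factor that drives thymic egress genes and quiescence in mature T cells, was at 6.11 and 7.30 CPM in the WT and 126 and 123 CPM in the KO members (6.71 ± 0.839 CPM against 125 ± 1.86 CPM, SD, n = 2 each; log2 difference 4.21, SE 0.14, adjusted p = 7.98e-16). Scart1, a scavenger receptor of IL-17-producing γδ T cells, went from 18.1 and 17.7 to 262 and 324 CPM (log2 difference 4.04, SE 0.16, adjusted p = 1.12e-14). Maf, the transcription factor on which those cells depend, went from 3.32 and 2.37 to 43.95 and 32.4 CPM (log2 difference 3.72, SE 0.17, adjusted p = 1.64e-13). In all 3 the lowest KO library lay above the highest WT library, and all 3 were chosen for large rises in both pools. Among non-cycling cells Scart1 was seen in 10.7% and 10.6% of WT and 50.8% and 54.0% of KO cells. Maf was seen there in 6.76% and 4.66% against 34.3% and 29.7%.

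The other genes with the largest rises, each averaging 20 CPM or more over the libraries and higher in both pools, were the chromatin remodeller gene Chd7 (4.54 on the log2 scale), Nucb2 (3.62), the phosphatase gene Cdc14b (3.61), Sidt1 (3.48), the transcription factor gene Glis3 (3.33), 2700054A10Rik (3.44) and D430041D05Rik (3.25). In all, 403 called genes met these limits of level and direction on the side of the rises, and 124 on the side of the falls.

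Under the same limits the falls were smaller. Tshz2, a zinc-finger homeobox gene, had the lowest value, from 45.5 and 35.9 CPM to 15.9 and 9.46 CPM (40.7 ± 6.73 CPM against 12.7 ± 4.52 CPM, SD, n = 2 each; log2 difference −1.75, SE 0.16, adjusted p = 6.67e-08). Ly6d, a surface marker of early lymphoid cells, fell from 1121 and 1118 to 410.2 and 554 CPM (log2 difference −1.21, SE 0.17, adjusted p = 2.05e-05). The chemokine receptor gene Ccr9, whose product guides progenitors within the thymus, fell from 39.9 and 30.2 to 19.8 and 11.5 CPM (log2 difference −1.23, SE 0.18, adjusted p = 0.000114). The groups did not overlap for any of the 3, which were chosen for large falls in both pools. Among non-cycling cells Tshz2 was seen in 49.9% and 49.4% of WT and 19.0% and 15.5% of KO cells. Ly6d was seen there in 94.8% and 95.1% against 79.3% and 84.1%.

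Cd28, the costimulatory receptor gene, was at 72.6 and 64.2 CPM in the WT and 34.1 and 30.5 CPM in the KO members (log2 difference −1.09, SE 0.12, adjusted p = 3.69e-07). Ldhb, a lactate dehydrogenase subunit, fell from 54.3 and 51.4 to 25.9 and 25.4 CPM, and Soat1, which esterifies cholesterol, from 66.3 and 57.2 to 30.8 and 29.5 CPM. Falls between −1.53 and −0.90 on the log2 scale were also called for St8sia1, Dgkeos, Cebpb, Med12l, Pde5a and Trgc4. The counts of Dgkeos, an antisense transcript, and of Trgc4, a γ-chain constant gene similar in sequence to others, are uncertain.

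**Figure D3:**
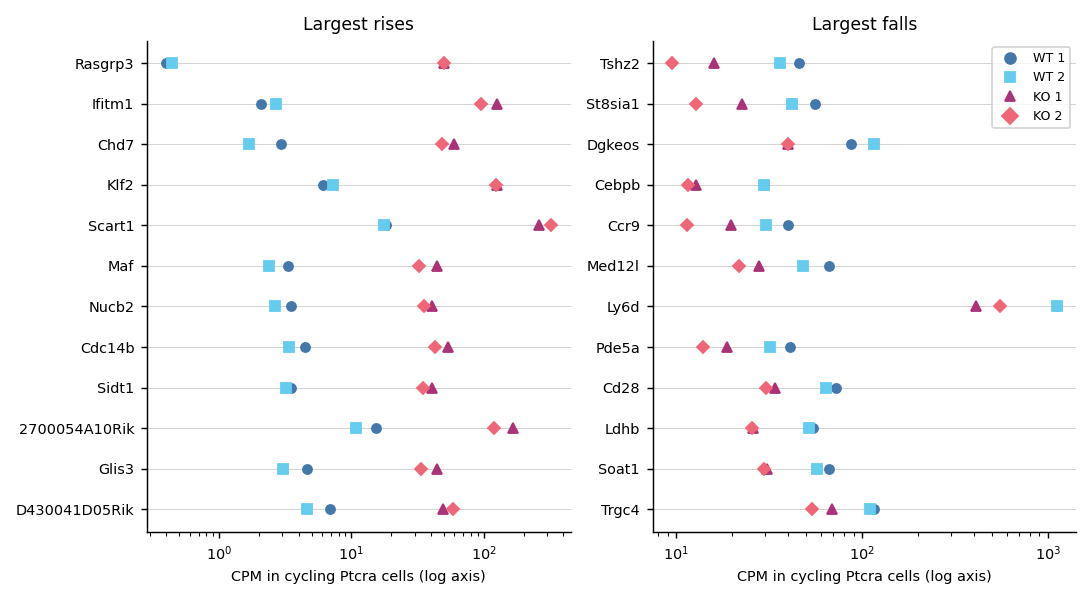
CPM per library, on a log axis, of the genes with the largest rises and falls with the label KO in cycling Ptcra cells, 1 point per library. Rasgrp3 lies at 0.399 and 0.437 CPM in the WT libraries and at 49.6 and 49.9 CPM in the KO libraries, and among the falls Tshz2 lies at 45.5 and 35.9 against 15.9 and 9.46 CPM.

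Genes of the IL-17-producing γδ T cell programme (γδT17) were the group with the highest median in the members. Of 19 tested in the members, 12 rose with the label KO and 1 fell, against 7.74% and 3.1% of all genes, with a median log2 difference of 1.82 against −0.01. Beside Maf and Scart1, the risers included Blk, a Src-family kinase, at 20.3 and 16.5 against 73.5 and 57.4 CPM (log2 difference 1.82, SE 0.13, adjusted p = 2.46e-10), and Sox13, an early γδ lineage factor, at 10.5 and 8.67 against 22.3 and 25 CPM (log2 difference 1.32, SE 0.15, adjusted p = 5.12e-07). Scart2 (1.52), the ETS factor gene Etv5 (1.45), Tmem176a (1.40) and Tmem176b (0.86) rose too. The list was drawn up with the study's subject and earlier results known, so its direction is not independent evidence. In the members 18 of its genes were higher in both pools (94.7%, against 32.8% of all genes). The replicate block called 18 higher and 1 lower, against 12.9% and 8.84% of all genes. With Mki67 or Top2a in place of both, with equal cell numbers and with the spread shared with the non-cycling sums, 9 were called higher. Over all genes these alternatives called 1096 of 12357, 758 of 10887 and 720 of 12106 higher, in that order. In the non-cycling Ptcra cells 7 of 19 were called higher and 0 lower, against 7.56% and 3.7% of all genes. The median of the list there was 2.08.

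Receptor genes of that group differed between the KO libraries. Il23r, the IL-23 receptor, was at 0.997 and 0.686 CPM in the WT members and at 13.5 and 4.25 CPM in the KO members (adjusted p = 0.00513), and Il1r1, the IL-1 receptor, at 0.864 and 0.936 against 12.6 and 3.91 CPM (adjusted p = 0.00363). Rora, a nuclear receptor, had 2.26 and 2.12 against 13.03 and 6.25 CPM (adjusted p = 2.05e-05). KO replicate 1 was the highest library for all 3. None of the 3 calls held with Mki67 or Top2a in place of both (adjusted p from 0.153 to 0.276) or with the spread shared with the non-cycling sums (0.179 to 0.317), and with equal cell numbers those for Il23r (0.316) and Il1r1 (0.535) were lost. Ccr6, a chemokine receptor gene, passed the test as well, but rested on 2 UMIs in each WT library (0.133 and 0.125 CPM against 3.30 and 1.13 CPM).

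Zbtb16, which encodes the innate-like lineage factor PLZF, was not called at 2.26 and 2.06 against 20.6 and 4.08 CPM (adjusted p = 0.498), and only KO replicate 1 stood apart.

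Among 10 γδ TCR genes tested, Trgv4 rose, and Trgc4 and Trgv1 fell, while 7.74% of all genes rose and 3.1% fell. With the replicate block 2 were higher and 3 lower, against 12.9% and 8.84% of all genes. Trgv4, a variable segment of the γ chain, was at 9.90 and 10.2 CPM against 18.7 and 17.5 CPM (log2 difference 0.84, SE 0.14, adjusted p = 0.000197). The constant gene of the δ chain, Trdc, was at 166 and 167 CPM in the WT and 172 and 164 CPM in the KO members (log2 difference 0.01, SE 0.12, adjusted p = 0.984). The call for Trgv1 was lost without WT replicate 1 (log2 −0.36, adjusted p = 0.609) and without KO replicate 2 (−0.47, 0.274), by DESeq2 (0.354) and in 5 other alternatives. The γ variable segments are similar in sequence, and the split of reads between them is uncertain.

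Of 18 tested genes of β-selection and the DN4 stage, 3 fell and 2 rose, with a median of 0.20. Over all genes 3.1% fell and 7.74% rose. Cd8b1, a CD8 chain that marks cells leaving the DN stage, fell from 13.5 and 17.4 CPM to 5.34 and 4.08 CPM (log2 difference −1.75, SE 0.20, adjusted p = 7.49e-07). Cd28 fell too. The risers were Cd2, an adhesion receptor, from 5.18 and 3.74 to 19.1 and 14.8 CPM (log2 difference 1.91, SE 0.18, adjusted p = 5.12e-08), and Tfrc, the transferrin receptor of growing cells, from 106 and 89.3 to 157 and 156 CPM (log2 difference 0.69, SE 0.12, adjusted p = 0.000225). Under the replicate block 6 rose and 3 fell, against 12.9% and 8.84% of all genes.

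The Notch list held 3 genes that rose and 0 that fell among 10 tested, against 7.74% and 3.1% of all genes. Its median was 0.18. No other gene of the list was under an unadjusted p of 0.05 by edgeR. DESeq2 called 2 higher and 0 lower, against 5.29% and 1.37% of all genes. The replicate block called 5 and 0, against 12.9% and 8.84%. Dtx1, a direct Notch target, rose from 16.2 and 13.6 CPM to 36.9 and 41.6 CPM (14.9 ± 1.85 CPM against 39.2 ± 3.32 CPM, SD, n = 2 each; log2 difference 1.41, SE 0.13, adjusted p = 4.03e-08). Hes1, another direct target, went from 63.7 and 65.3 to 85.1 and 100.4 CPM (log2 difference 0.53, SE 0.13, adjusted p = 0.00503), a call lost without KO replicate 2 (0.34, adjusted p = 0.193), with Mki67 or Top2a in place of both (0.24, 0.282) and with the spread shared with the non-cycling sums (0.54, 0.098). Notch3 went from 92.8 and 76.3 to 113 and 107 CPM (log2 difference 0.38, SE 0.12, adjusted p = 0.0378), and this call was lost without WT replicate 2 (0.29, adjusted p = 0.384), KO replicate 1 (0.40, 0.095) or KO replicate 2 (0.36, 0.165) and in 5 other alternatives, among them Mki67 or Top2a (0.23, 0.241). Of the 3 Notch calls 1, that of Dtx1, held in that alternative.

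Among 19 pre-TCR and recombination genes, 4 rose and 1 fell, against 7.74% and 3.1% of all genes, with a median of 0.03. With the replicate block 6 were higher and 2 lower, against 12.9% and 8.84%. Rag2 rose from 32.4 and 35.1 to 68.1 and 53.8 CPM (log2 difference 0.83, SE 0.12, adjusted p = 2.64e-05), and the Src-family kinase gene Fyn from 63.5 and 52.7 to 113 and 86.2 CPM (log2 difference 0.76, SE 0.12, adjusted p = 8.56e-05). Rag1, at 128 and 117 against 168 and 171 CPM (log2 difference 0.47, SE 0.12, adjusted p = 0.0104), lost its call without WT replicate 1 (0.49, adjusted p = 0.0511), WT replicate 2 (0.45, 0.0846) or KO replicate 2 (0.40, 0.133) and in 2 other alternatives. Themis, a TCR signalling adaptor gene of developing thymocytes, fell from 949 and 773 to 540.4 and 423 CPM (log2 difference −0.84, SE 0.15, adjusted p = 0.000377).

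Of 17 T-lineage transcription factor genes 5 rose and 1 fell, against 7.74% and 3.1% of all genes, with a median of 0.02. With the replicate block 7 were higher and 4 lower, against 12.9% and 8.84%. Id3, an inhibitor of E proteins induced by TCR signals, was at 92.99 and 88.9 CPM in the WT and 149 and 149 CPM in the KO members (log2 difference 0.71, SE 0.12, adjusted p = 0.000108). Its relatives Id1 (0.399 and 0.562 against 6.28 and 5.03 CPM, log2 difference 3.50, SE 0.37, adjusted p = 2.90e-07) and Id2 (15.5 and 13.1 against 43.6 and 25.95 CPM, log2 difference 1.24, SE 0.17, adjusted p = 4.69e-05) rose too. Gata3, a factor needed for T-cell commitment, rose from 97.04 and 89.9 to 141 and 143 CPM (log2 difference 0.60, SE 0.12, adjusted p = 0.000784).

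Ikzf3, which encodes Aiolos, fell from 49.5 and 47.99 to 42.4 and 29.9 CPM (log2 difference −0.46, SE 0.13, adjusted p = 0.0187), and the call was lost without WT replicate 2 (−0.43, adjusted p = 0.0541) or KO replicate 2 (−0.25, 0.434). With Mki67 or Top2a in place of both, the difference was −0.08 (adjusted p = 0.869), and the call was also lost by DESeq2 (0.117), with equal cell numbers (0.138) and with the spread shared with the non-cycling sums (0.589). Runx3 rose (0.62, adjusted p = 0.00495), a call lost without WT replicate 2 (0.41, adjusted p = 0.134) and with the spread shared with the non-cycling sums (0.64, 0.0647). Of 9 genes carried over from progenitors, 2 rose and 0 fell, with 4 at an unadjusted p below 0.05 by edgeR. DESeq2 called 1 higher, and the replicate block called 5 higher and 0 lower. Over all genes edgeR called 7.74% higher, DESeq2 5.29% and the block 12.9%. Those that rose by edgeR without the block were Hoxa9, at 0.731 and 0.749 against 2.98 and 2.86 CPM, and Cd44, at 4.98 and 3.49 against 9.57 and 5.73 CPM (adjusted p = 0.0365). The call for Cd44 was lost by DESeq2 (adjusted p = 0.219), without WT replicate 2 (0.62, adjusted p = 0.299), without KO replicate 1 (0.50, 0.363) and in 6 other alternatives.

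The cell-cycle lists themselves held few calls, while edgeR called 7.74% of all genes higher and 3.1% lower. Among 44 S-phase genes 0 passed the edgeR test in either direction, with 4 at an unadjusted p below 0.05, and DESeq2 called 1 lower. Their median was −0.15, and 39 of 44 were lower in the KO than in the WT library of both pools (88.6%, against 36.4% of all genes). With the replicate block 14 were lower and 0 higher, against 8.84% and 12.9% of all genes. A term for the pool leaves fewer degrees of freedom among the 4 sums. The p-values with the block therefore lean more on the spread estimated across genes. Atad2, a chromatin factor of S phase, was at 375 and 348 CPM against 273 and 281 CPM (log2 difference −0.38, SE 0.13, adjusted p = 0.0754, and 3.00e-09 with the block), and Mcm4, of the replicative helicase, at 161 and 173 against 138 and 141 CPM (log2 difference −0.26, SE 0.12, adjusted p = 0.228, and 0.000227 with the block).

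Summed over the list, S-phase genes were at 7154 and 7218 CPM in the WT members and 6472 and 6651 CPM in the KO members, without overlap. In the non-cycling cells they were at 2215 and 2310 against 1906 and 1964 CPM, also without overlap. The list's median there was −0.23, with 3 of 44 called lower and 0 higher, against 3.7% and 7.56% of all genes. With the block 18 were lower and 0 higher there, while 1151 of 11700 genes were lower and 1599 higher. In the members the G2/M sums overlapped, at 11265 and 11788 against 12124 and 11153 CPM. Of 50 G2/M genes, Gas2l3, a gene of late mitosis, was the 1 called, with 17.7 and 16.4 against 32.96 and 22.3 CPM (log2 difference 0.66, SE 0.14, adjusted p = 0.00226), and it lost its call without KO replicate 1 (0.45, adjusted p = 0.0556). The block called 6 higher and 1 lower, against 12.9% and 8.84% of all genes.

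Among the 13 E2F and pocket-protein genes and the 15 cyclins and kinases, edgeR called 0, with 4 and 2 at an unadjusted p below 0.05, and DESeq2 called 0. The block called 1 higher and 5 lower of the former, and 1 higher and 2 lower of the latter. Over all genes it called 12.9% higher and 8.84% lower. E2f1, which drives entry into S phase, was at 42.9 and 43.3 against 32.02 and 37.2 CPM (log2 difference −0.30, SE 0.13, adjusted p = 0.17, and 0.00793 with the block). Ccna2, cyclin A2, was at 109 and 119 against 132 and 115 CPM (log2 difference 0.11, SE 0.12, adjusted p = 0.719).

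Cdkn1a was the gene of the CDK inhibitors and p53 targets that fell. It encodes the inhibitor p21, and its level was 23 and 21.4 CPM in the WT members and 5.02 and 4.77 CPM in the KO members (22.2 ± 1.13 CPM against 4.90 ± 0.176 CPM, SD, n = 2 each; log2 difference −2.17, SE 0.16, adjusted p = 8.22e-10). The non-cycling cells of the same libraries had 95.3 and 97.2 against 25.02 and 22.8 CPM (log2 difference −1.98, SE 0.12, adjusted p = 2.39e-06). Of the 17 genes tested 2 rose and 1 fell, against 7.74% and 3.1% of all genes. Pmaip1, which encodes the proapoptotic protein NOXA, rose from 1.13 and 1.06 to 3.77 and 3.91 CPM (log2 difference 1.81, SE 0.34, adjusted p = 0.000623). Cdkn1b, which encodes the inhibitor p27, went from 51.7 and 52.8 to 73.5 and 61.4 CPM (log2 difference 0.36, SE 0.12, adjusted p = 0.0494) and lost its call when any 1 library was left out (0.29 to 0.44, adjusted p from 0.054 to 0.329) and in 6 other alternatives.

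Among 15 BCL2-family genes Pmaip1 rose and Bid, a proapoptotic gene, fell from 34.1 and 33.9 to 25.7 and 25 CPM (log2 difference −0.42, SE 0.12, adjusted p = 0.0234), a call lost without WT replicate 2 (−0.38, adjusted p = 0.162), KO replicate 1 (−0.38, 0.125) or KO replicate 2 (−0.46, 0.0642), by DESeq2 (0.183) and with the spread shared with the non-cycling sums (0.0956). With the replicate block 4 of the family were higher and 2 lower, against 12.9% and 8.84% of all genes. Without it 1 was higher and 1 lower, against 7.74% and 3.1%. Of 16 glycolysis genes 2 rose and 3 fell, with a median of −0.06, and the block called 3 higher and 6 lower. Over all genes these shares were 7.74% and 3.1%, and 12.9% and 8.84% with the block. Slc16a1, a lactate transporter, fell from 107 and 98.8 to 76.8 and 71.4 CPM (log2 difference −0.48, SE 0.11, adjusted p = 0.00539), and Pkm, pyruvate kinase, rose from 209.6 and 227 to 284 and 339 CPM (log2 difference 0.52, SE 0.14, adjusted p = 0.0171). The Pkm call was lost without WT replicate 1 (0.42, adjusted p = 0.234) or KO replicate 2 (0.33, 0.346) and with the spread shared with the non-cycling sums (0.127).

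Of the 14 Gfi1-family and partner genes, Gfi1 was the 1 called, with 2 at an unadjusted p below 0.05, DESeq2 called 1, and the replicate block called 2. The median of the list was −0.04, and 10.8% of all genes were called by edgeR.

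**Figure D4:**
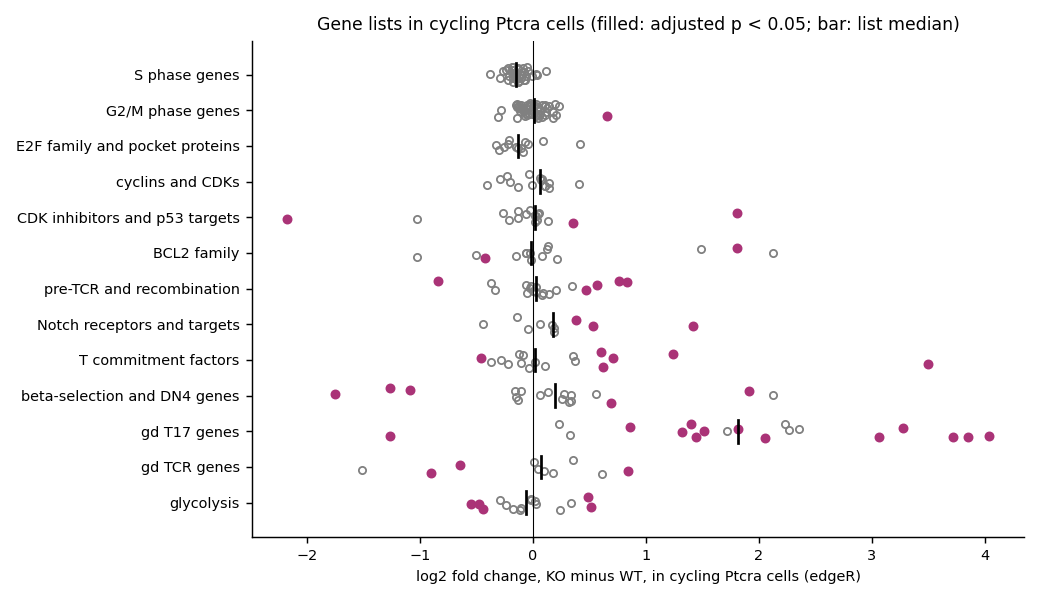
Log2 difference of the KO from the WT libraries in cycling Ptcra cells for every tested gene of the gene lists, with called genes marked and a bar at each list's median. The γδT17 list lies highest with a median of 1.82, while the S-phase list is narrow around −0.15 with 0 called.

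Markers of other cells moved with the label in the members too. Of 10 Il2rb and NK-type genes tested 6 rose and 0 fell, against 7.74% and 3.1% of all genes. By edgeR 8 had an unadjusted p below 0.05, while DESeq2 called 4 higher, against 5.29% of all genes. Gzma, a granzyme, was at 379.6 and 418 against 676 and 628 CPM (log2 difference 0.70, SE 0.14, adjusted p = 0.00143), and this call was lost without WT replicate 1 (0.59, adjusted p = 0.0983). Il2rb itself was at 1.46 and 1.25 against 7.06 and 3.65 CPM. Of 9 genes of mature αβ T cells 3 rose, Ccr7 and S1pr1 among them, and Cd28 and Cd8b1, which the β-selection list also holds, fell. Of 4 B-lineage genes tested Ighm fell, and the 1 erythroid gene tested was not called. Of 4 myeloid genes Lyz2 fell (with the replicate block 1 was higher and 2 lower, against 12.9% and 8.84% of all genes). The call for Ighm was lost without WT replicate 2 (−0.41, adjusted p = 0.0685) and with Mki67 or Top2a in place of both. That for Lyz2 was lost by DESeq2 (adjusted p = 0.24) and without WT replicate 1, WT replicate 2 or KO replicate 2 (adjusted p from 0.105 to 0.362), and that for S1pr1 by DESeq2 (adjusted p = 0.146) and without WT replicate 1 or KO replicate 1 (0.288 and 0.133). Igkc, at 9.31 and 103 against 55.7 and 42.9 CPM, was not called (adjusted p = 0.971), but was called lower without WT replicate 1 (−1.12) and higher without WT replicate 2 (2.44). The part of such cells in the differences above was not tested.

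The members were divided by Il2ra, which falls after β-selection. Members with at least 1 UMI of Il2ra made up 81.7% and 74.1% of the WT and 83.8% and 79.9% of the KO members. In these cells Scart1 was at 17.3 and 19.7 CPM against 261 and 327 CPM, and in the rest at 22.2 and 11.3 CPM against 271 and 313 CPM. Klf2 was likewise at 5.85 and 6.76 against 122 and 119 CPM with Il2ra, and at 7.39 and 8.98 against 151 and 142 CPM without. Both differences were therefore present on either side of the split.

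Cd8b1 was lower with the label KO on both sides, at 12.3 and 11.5 against 5.47 and 2.68 CPM with Il2ra and at 19.4 and 35.7 against 4.53 and 10.1 CPM without. Restricting members and non-cycling cells to those with Il2ra, an alternative added after seeing the data, called 1268 genes in the members, of which 1155 were among the 1269.

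Whether an effect differed between the states was tested as an interaction over the 8 sums with the library as a block, because a call in 1 state alone does not show a difference. Of 12106 genes, 766 had an effect that differed (6.33%), 582 with a more positive effect in the members (4.81%) and 184 with a more negative one (1.52%). The median over all genes was 0.07. This count was 446 without WT replicate 1, 356 without WT replicate 2, 504 without KO replicate 1 and 1155 without KO replicate 2, and DESeq2 called 181. The balance of directions rested on KO replicate 1, without which 230 were more positive and 274 more negative and the median was −0.02. It was also less one-sided by DESeq2 (115 against 66), with equal cell numbers (308 against 173) and with ribosomal, Gm-numbered and mitochondrial genes kept (365 against 270).

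Among genes averaging 20 CPM or more in either state, Cacnb2, a calcium-channel subunit gene, had the most positive difference of effects (1.78, SE 0.26, adjusted p = 0.00012). It was lower with the label KO in both states, at 36.1 and 25.3 against 7.38 and 5.29 CPM in the members and 53.4 and 39.5 against 2.23 and 3.04 CPM in the non-cycling cells. Npas2, a clock-family factor gene, followed (1.60, SE 0.18, adjusted p = 3.92e-06), with 6.71 and 6.61 against 31.4 and 23 CPM in the members and 51.3 and 38.2 against 58.5 and 60.2 CPM in the non-cycling cells.

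Bcl2, the survival gene, differed in the same direction (1.31, SE 0.10, adjusted p = 1.75e-08). In the members it was at 196 and 117 CPM in the WT and 212 and 151 CPM in the KO libraries, which overlap, and in the non-cycling cells at 379.96 and 281 against 181 and 142 CPM (log2 difference −1.01, SE 0.15, adjusted p = 0.00121). Klf2 rose more in the members than in the non-cycling cells, where it was at 10.9 and 9.46 against 96.95 and 100.6 CPM (difference of effects 0.96, SE 0.17, adjusted p = 0.000723).

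Of 10 Notch genes, 4 had a more positive effect in the members and 0 a more negative one, against 4.81% and 1.52% of all genes. By edgeR 5 had an unadjusted p below 0.05. DESeq2 called 4 more positive and 0 more negative, against 0.95% and 0.545% of all genes. By edgeR these were Dtx1 (0.74), Hes1 (0.81), Notch3 (0.68) and Il2ra (0.67), against a median of 0.07 over all genes. Hes1 was at 235 and 270 against 196 and 231 CPM in the non-cycling cells (adjusted p = 0.553), and Il2ra at 996 and 773 against 637 and 667 CPM (adjusted p = 0.161). For both genes the KO libraries lay below the WT libraries in that state. Of 10 Notch genes 1 was called higher and 0 lower there, against 7.56% and 3.7% of all genes. With the replicate block 1 was higher and 4 were lower, and 1599 of 11700 genes were higher and 1151 lower.

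Of 10 γδ TCR genes, 6 had a more positive effect in the members and 0 a more negative one, against 4.81% and 1.52% of all genes, with a median of 0.76. DESeq2 called 4, against 0.95% of all genes. In the non-cycling cells 6 of the 10 genes were called lower with the label KO and 1 higher, against 3.7% and 7.56% of all genes. The median log2 difference of the list was −0.73 there and 0.07 in the members. Trgc1 (0.94, SE 0.10, adjusted p = 1.07e-05) was at 206 and 183 against 242 and 198 CPM in the members and 487 and 463 against 277 and 293 CPM in the non-cycling cells. The others with a more positive effect were Trgc2 (0.87), Trgc4 (0.76), Trgv2 (0.76), Trgv4 (0.91) and Trdc (0.36), with the limit on similar sequences given above. The value for Trdc was not called without WT replicate 1 (0.33, adjusted p = 0.136) or KO replicate 1 (0.15, 0.394).

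The most negative difference of effects above 20 CPM was that of Ikzf3 (−2.12, SE 0.23, adjusted p = 8.79e-05), which fell in the members and was at 13.4 and 10.9 against 64.6 and 24.1 CPM in the non-cycling cells. Among cells with Il2ra alone this difference was −1.95 and not called (adjusted p = 0.269). Cd8b1 (−2.56, SE 0.33, adjusted p = 2.97e-05), which lies below that level, was at 1.51 and 3.15 against 4.32 and 4.16 CPM in the non-cycling cells. Trac, the constant gene of the TCR α chain, was at 6.38 and 6.24 against 12.2 and 4.95 CPM in the members and 9.85 and 6.31 against 47.8 and 18.7 CPM in the non-cycling cells (−1.56, SE 0.23, adjusted p = 0.000122).

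For Ikzf3 and Trac the non-cycling cells of KO replicate 1 were the highest of the 8 sums. Marker sums of other cells were also higher in the non-cycling cells of the KO libraries than in their members, where the B-lineage list summed to 140 and 126 CPM, the Il2rb and NK-type list to 763 and 697 CPM and the mature αβ T list to 313 and 254 CPM. In the WT libraries the Il2rb and NK-type sum was instead lower in the non-cycling cells than in the members (422 and 459 CPM). In the non-cycling cells the B-lineage list summed to 131 and 222 CPM in the WT and 577 and 1399 CPM in the KO libraries, the Il2rb and NK-type list to 291 and 315 against 840.4 and 795 CPM, and the mature αβ T list to 238 and 239 against 428 and 374 CPM. Their part in these differences of effects was not tested.

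**Figure D5:**
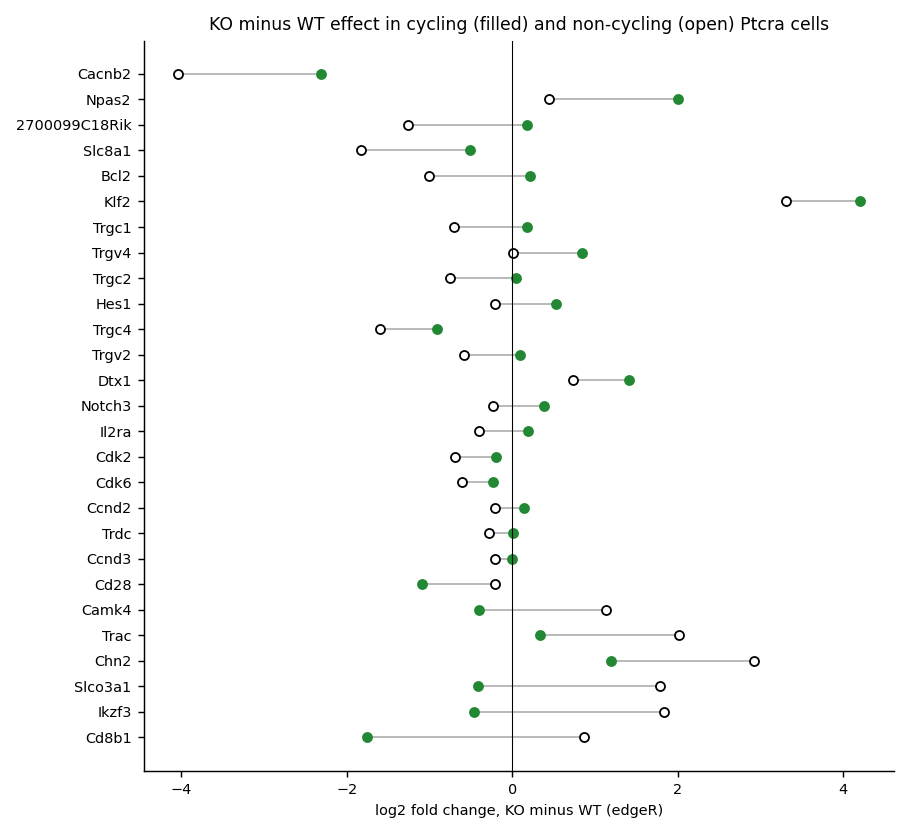
Log2 difference of the KO from the WT libraries in cycling (filled) and non-cycling (open) Ptcra cells, joined by a line for each named gene whose effect differed between the states. For Cd8b1 the cycling value is negative, at −1.75, and the non-cycling value positive, while for Dtx1, Hes1 and Klf2 the cycling value lies to the right of the non-cycling one.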

How the data were processed

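Single-cell RNA of thymic DN1 to DN3 cells was counted in 4 hashtag-separated libraries of 2 pools, 2 labelled WT and 2 labelled KO. The deposited files hold unnormalized UMI counts of each gene in each cell, which the authors produced with Cell Ranger 8.0.1, and the submitters' processing notes name GRCm39. The authors called cells and split them by hashtag, so the agreement of tag and label in 100% of cells is no check of genotype. No doublet caller was run, and an alternative left out cells above 40000 UMIs.

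Counts of members were summed per library. As in the study, 9538 of 33696 genes (ribosomal, Gm-numbered and mitochondrial) were left out by name, with 22.9% to 26% of the members' UMIs. Sums were compared by edgeR 4.0.16 in R 4.3.3 (quasi-likelihood F test, TMM, default filter on low counts), with Benjamini-Hochberg adjustment over all genes tested, and by DESeq2 1.42.0 as an alternative. Residual degrees of freedom were 2, with a prior of 20.39 in the members, so the p-values rest largely on the spread estimated across genes. The fit with the pool as a block has fewer, so its p-values lean more on the spread estimated across genes. A gene was called at an adjusted p below 0.05, two-sided. "Rose" and "fell" refer to called genes, and log2 differences are KO minus WT. The rule genes were not tested.

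The pool number pairs libraries because both genotypes of a pool shared a droplet run, and deviations from the group means correlated at 0.218 within pools in the members and 0.278 in the non-cycling cells. The fit without the block was kept as the main one. The code was tested on simulated data with known changes.

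Named genes were the 12 largest rises and the 12 largest falls among called genes that averaged 20 CPM or more and moved one way in both pools, the 5 largest differences of effects each way, the 10 highest and lowest ratios to non-cycling cells, members of the gene lists and Gfi1. Some genes that these rules or the lists select are counted but not reported by name here. Xist and Ddx3y were named after their values were seen. The members, lists and tests were chosen with earlier results of these data known.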

Additional observations from a re-analysis of the deposited data

Results flagged for a closer look

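A difference between the cycling and the non-cycling Ptcra cells in the effect of the KO label, tested as an interaction by edgeR, drew attention to 766 genes and, among them, to those named here. More positive in cycling cells, on the log2 scale, were the effects on Cacnb2 (1.78), Npas2 (1.60), 2700099C18Rik (1.52), Slc8a1 (1.41), Bcl2 (1.31) and Klf2 (0.96). The same held for the Notch genes Hes1 (0.81), Dtx1 (0.74), Notch3 (0.68) and Il2ra (0.67), and for the γδ TCR genes Trgc1 (0.94), Trgv4 (0.91), Trgc2 (0.87), Trgc4 (0.76), Trgv2 (0.76) and Trdc (0.36). Among cyclins and kinases it held for Cdk2 (0.58), Cdk6 (0.44), Ccnd2 (0.42) and Ccnd3 (0.27), each of which lost the call without WT replicate 2 (0.52, 0.44, 0.29 and 0.33), among others. Of the γδ TCR genes, Trgc1, Trgc2, Trgc4 and Trgv2 were called lower with the label KO in the non-cycling cells.

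More negative were the effects on Cd8b1 (−2.56), Ikzf3 (−2.12), Slco3a1 (−2.03), Chn2 (−1.67), Trac (−1.56), Camk4 (−1.41) and Cd28 (−0.79). The Ikzf3 value was not called among cells with Il2ra alone (−1.95, adjusted p = 0.269). Camk4, a calcium-dependent kinase gene, was at 237 and 191 against 188 and 139 CPM in cycling cells and at 45.4 and 44.7 against 131 and 67.9 CPM in non-cycling cells. Slco3a1 and Chn2 were highest in the non-cycling cells of KO replicate 1, at 17.7 and 9.36 against 71.5 and 23.8 CPM and 11.4 and 4.78 against 85.8 and 36.5 CPM.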

How the results depend on the processing

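In the cycling cells the count of 1269 genes was 780 by DESeq2 and 2541 with the pool as a replicate block, and lay between 940 and 1241 when 1 library was left out. The block gave 2750 genes in the non-cycling cells, against 1317. The 766 differences of effects became 181 by DESeq2, 481 with equal cell numbers, and 356 to 1155 when 1 library was left out, and without KO replicate 1 more of them were negative (274) than positive (230). That fit already blocks on the library. The share difference of −5.24 points (KO over WT 0.79) was −1.98 after thinning, which lowered the shares themselves (0.81), −3.92 over all cells (0.66), and −5.89 to −4.59 without 1 library. In these alternatives no called gene changed sign, while Igkc, not called with all libraries, was called at −1.12 without WT replicate 1 and at 2.44 without WT replicate 2. Of 73 named genes called in cycling cells, 53 kept their call under every alternative and 20 lost it under at least 1, of which 16 lost it with a library left out. Of 46 named genes whose effect differed between the states, 21 kept that call under every alternative and 25 lost it under at least 1, of which 21 lost it with a library left out and 19 by DESeq2. A gene that the count filter left out of an alternative was counted as keeping its call there. The cause of these losses was not tested. Id2 lost its call with the spread shared with the non-cycling sums. With 2 libraries per label, changes near the threshold depend on single libraries, and animals and libraries cannot be told apart.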

Other observations

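Within the cycling Ptcra cells, several genes of the DN3 state differed between members with and without Il2ra UMIs, given here as values with no test. Notch3 was at 102 and 88.3 CPM in WT and 114 and 118 CPM in KO members with Il2ra, and at 46.3 and 38.7 against 100.8 and 58.98 CPM in those without. Dtx1 was at 17.96 and 15.1 against 40.5 and 44.6 CPM with Il2ra and at 7.78 and 8.98 against 14.7 and 28.8 CPM without. The KO libraries lay above the WT libraries for Notch3 and Dtx1 on both sides of the split.

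Cdkn1a was at 23.9 and 25.9 against 5.47 and 5.68 CPM in members with Il2ra and at 18.7 and 7.44 against 2.26 and 0.91 CPM in those without, where the KO values rest on 2 UMIs in each library.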
